A study of Mus musculus with 6 samples.

Results

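The 10 genes described here belong to the oxidative stress and glutathione response: Hmox1, Nqo1, Gclc, Gclm, Txnrd1, Srxn1, Gsr, Prdx1, Cat and Sod2. They were chosen by name from what their products do, and each has a row in the gene table of every mouse, so they are 10 of the 22651 genes in the tables. All 10 passed the filter on low counts that left 13969 genes for testing. Messenger RNA was sequenced from the telencephalon, the front of the brain from which cortex and striatum form, of 3 WT and 3 TSC1-KO mice at postnatal day 0. The WT mice carried TSC1 flox/flox with Emx1 +/+, and the TSC1-KO mice carried TSC1 flox/flox with Emx1-cre/+, so the floxed Tsc1 alleles were shared by both groups and only the Cre allele differed. Cre recombinase was made from the Emx1 locus, which is active in the embryonic dorsal cortex, and the dissected tissue therefore also held cells in which Tsc1 was not deleted. Tsc1 is an inhibitor of mTORC1, the growth-controlling kinase complex, and the comparison asks which transcripts differ when that inhibitor is lost.

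Cells make reactive oxygen species as a by-product of respiration and of many oxidases, and several enzyme systems remove them. Superoxide dismutases turn superoxide into hydrogen peroxide, which catalase, peroxiredoxins and glutathione peroxidases then break down. Peroxiredoxins and glutathione must be reduced again after use, by the thioredoxin and glutathione reductases at the expense of NADPH. Many of these enzymes are induced together by NRF2 (the product of Nfe2l2), a transcription factor that KEAP1 marks for degradation until oxidants or electrophiles modify KEAP1. NRF2 binds with a small MAF protein to a short DNA element, the antioxidant response element. In brain tissue the response is usually strongest in glia and in cells of the vessels and meninges.

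Total expected counts, the number of reads that RSEM assigned to genes, ranged from 14119365 to 17772865 per mouse. Levels are given as TPM, which is corrected for transcript length and can be compared between genes, and differences as log2 fold changes of TSC1-KO against WT from edgeR's quasi-likelihood test on the counts, with a standard error (SE) or a 95% interval. A gene was called when its Benjamini-Hochberg adjusted p over all 13969 genes was below 0.05. Tsc1 itself was at 50.2, 32.0 and 28.4 TPM in WT replicates 1, 2 and 3 and at 27.1, 21.7 and 22.4 TPM in TSC1-KO replicates 1, 2 and 3. The groups did not overlap, with a log2 fold change of -0.66 (SE 0.18), but the edgeR adjusted p was 0.09998 (DESeq2 0.00321). The reads come from the whole transcript, including the exons that Cre leaves in place. The 8 telencephalic neuron markers, which check the labelled tissue, were all detected and summed to 1739 to 2094 TPM over the 6 mice. On the first principal component TSC1-KO replicate 3 lay at -3.95, between the WT mice (-26.3 to -7.43) and the other TSC1-KO mice (26.5 and 30.3). Without TSC1-KO replicate 3, edgeR called 799 genes in place of 212.

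None of the 10 genes was called as changed. Their log2 fold changes were split evenly, 5 above 0 and 5 below, with a median of 0.011 against -0.0027 for all genes tested. The median size of the change, regardless of direction, was 0.099 on the log2 scale for the 10 genes and 0.134 for all genes tested. edgeR called 212 of 13969 genes, or 1.52%, and 0 of the 10 genes. DESeq2 called 4.87% of the genes it tested and limma on log2(TPM + 1) called 1.98%, and both again called 0 of the 10. At an unadjusted edgeR p below 0.05 were 2 of the 10 genes, Prdx1 and Nqo1, beside 18.0% of all genes. The TPM of the groups did not overlap in the same 2 genes, beside 22.7% of all genes. Both shares are close to what the whole transcriptome shows.

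The precision of these values limits how large a missed change in the whole tissue could be. The tissue also held cells in which Tsc1 was not deleted, so the intervals do not bound a change within the deleted cells alone. The 95% intervals of the 10 log2 fold changes extended by 0.147 to 0.598 to either side, with a median of 0.242 against 0.266 for all genes tested. For 9 of the 10 genes the whole interval lay within a log2 change of 1 in either direction, that is, within a doubling or halving, and for 8 it lay within 0.5. The exceptions to the narrower limit were Hmox1 and Nqo1, and Nqo1 was also the exception to the wider one. For comparison, the 212 called genes had a median absolute log2 fold change of 0.62, and the smallest among them was 0.30. The p-values rest on 3 mice per group.

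**Figure D1:**
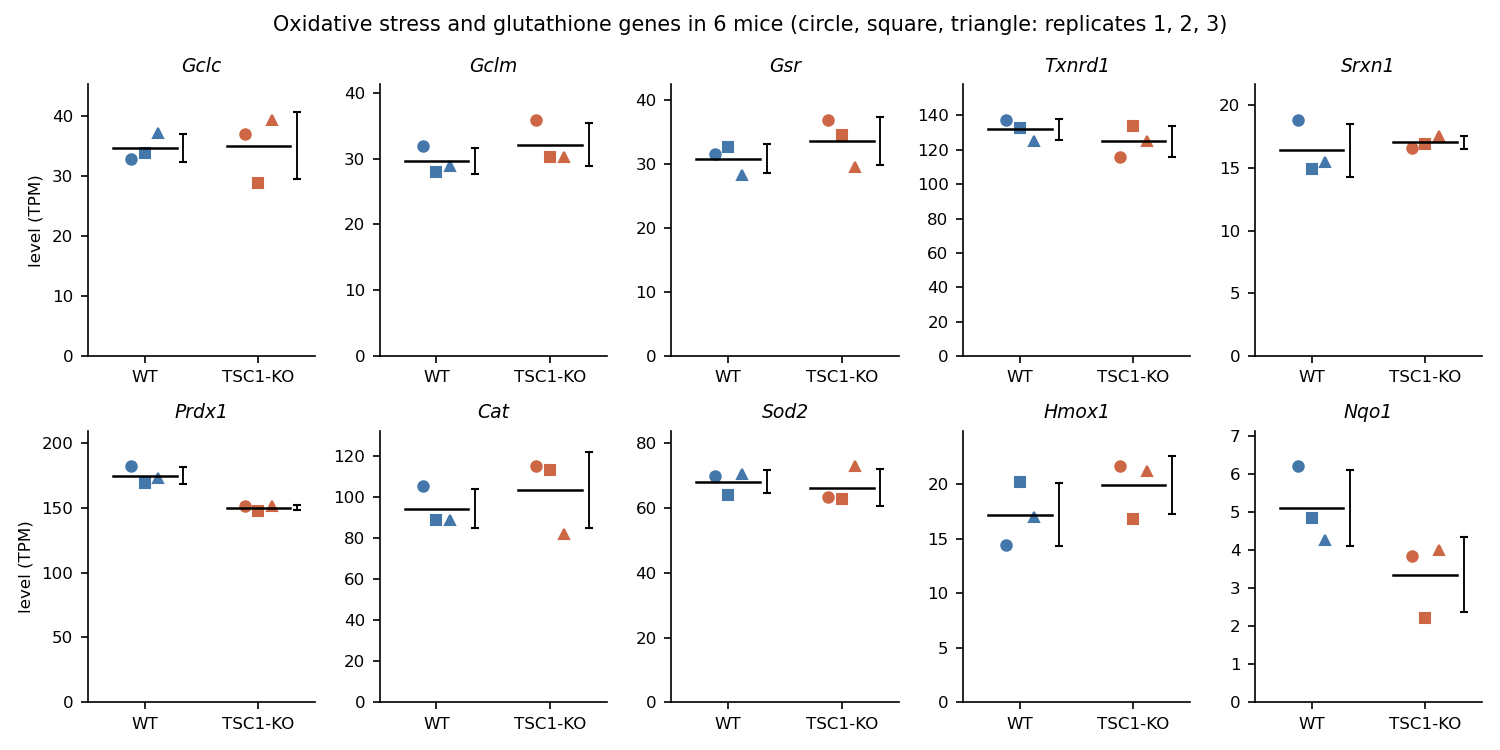
Level of each of the 10 genes in TPM (vertical axes from 0) in the 3 WT and 3 TSC1-KO mice. Circles, squares and triangles are replicates 1, 2 and 3, the black line is the mean and the bar the SD. The groups overlap in 8 panels and lie apart in those of Prdx1 (169 to 182 TPM against 148 to 151) and Nqo1 (4.25 to 6.19 TPM against 2.22 to 3.99).

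The 10 genes were present at very different levels. Prdx1 was highest at a mean of 162 TPM over the 6 mice, and Txnrd1 (128 TPM) and Cat (98.8 TPM) came next. Sod2 followed at 67.3 TPM, ahead of a group formed by Gclc (34.9 TPM), Gsr (32.2 TPM) and Gclm (30.8 TPM). Hmox1 (18.5 TPM) and Srxn1 (16.7 TPM) were lower, and Nqo1 was lowest at 4.22 TPM, 38.4-fold below Prdx1. The ranges over the 6 mice of neighbours in this order overlapped for Gclc and Gsr, for Gsr and Gclm and for Hmox1 and Srxn1, and those pairs were not separated. For the other neighbouring pairs the ranges did not overlap.

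Glutathione is built in steps, and the first and rate-limiting one is carried out by glutamate-cysteine ligase, an enzyme of a catalytic subunit (Gclc) and a modifier subunit (Gclm) that raises its affinity for glutamate. Gclc (chr9:77754535-77794485, plus strand, GRCm38) was at 32.8, 33.8 and 37.3 TPM in the WT mice and at 37.1, 28.9 and 39.4 TPM in the TSC1-KO mice. The lowest and the highest value were both in TSC1-KO mice, and the WT values lay between them. For Gclc the log2 fold change was -0.01 (95% interval -0.29 to 0.28, edgeR adjusted p = 0.981), its sign depended on the settings, and it was -0.11 without TSC1-KO replicate 3 (adjusted p = 0.628).

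Gclm (chr3:122245557-122270732, plus strand) was at 31.9, 28.02 and 28.9 TPM in the WT mice and at 35.9, 30.2 and 30.2 TPM in the TSC1-KO mice. The highest WT mouse lay above the pair of lower TSC1-KO mice, so the groups overlapped. Its log2 fold change was 0.09 (95% interval -0.14 to 0.31, edgeR adjusted p = 0.687). The gene models Gm17494 (a processed transcript) and Gm6061 (a processed pseudogene) overlap it in the annotation, and the library kit did not keep strand. The WT mice had a Gclc to Gclm ratio of 1.18 ± 0.133 (SD, n = 3), and the TSC1-KO mice one of 1.10 ± 0.182 (n = 3), a log2 difference of -0.11 (two-sided exact permutation test, p = 0.8). It was the first of 4 ratios tested, and its Benjamini-Hochberg adjusted exact p was also 0.8.

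Glutathione reductase, encoded by Gsr (chr8:33652523-33698163, plus strand), returns oxidised glutathione to its reduced form. Gsr was at 31.6, 32.6 and 28.2 TPM in the WT mice and at 36.9, 34.5 and 29.5 TPM in the TSC1-KO mice. Replicate 3 was the lowest mouse of each group, and the TSC1-KO one fell within the WT range. The log2 fold change was 0.09 (95% interval -0.13 to 0.32, edgeR adjusted p = 0.659), and 0.17 without TSC1-KO replicate 3 (adjusted p = 0.352).

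The thioredoxin branch was represented by 3 genes. Txnrd1 (chr10:82833951-82897712, plus strand) encodes the cytosolic thioredoxin reductase, a selenoprotein that keeps thioredoxin reduced. It was at 137, 133 and 125 TPM in the WT mice and at 116, 134 and 125 TPM in the TSC1-KO mice. TSC1-KO replicate 1 was the lowest mouse, and the other TSC1-KO mice lay within or just below the WT range. Txnrd1 had a log2 fold change of -0.10 (95% interval -0.27 to 0.06, edgeR adjusted p = 0.498). Txnrd1 was the only one of the 10 genes whose RSEM transcript length varied between mice, from 3393 to 3403 bases. The protein-coding gene Eid3 lies within its span. Txnrd2, which encodes the mitochondrial reductase, was at a mean of 16.8 TPM in WT and 17.1 TPM in TSC1-KO mice. Txnrd1 exceeded Txnrd2 by a ratio of 7.89 ± 0.424 (SD, n = 3) among WT mice, against 7.30 ± 0.482 (n = 3) among TSC1-KO mice (two-sided exact permutation p = 0.2, adjusted over the 4 ratios 0.4).

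Peroxiredoxin 1, the product of Prdx1 (chr4:116685544-116700822, plus strand), is an abundant cytosolic enzyme that breaks down hydrogen peroxide with electrons from thioredoxin. Prdx1 was at 182, 169 and 173 TPM in the WT mice and at 151, 148 and 151 TPM in the TSC1-KO mice. All 3 TSC1-KO mice lay below all 3 WT mice, and the mice of a group were close to each other. The WT mice had a mean of 174.5 TPM, with an SD of 6.45 TPM in WT and 2.01 TPM in TSC1-KO mice (n = 3 each). The log2 fold change was -0.25 (SE 0.065), a ratio of 0.841 with a 95% interval of 0.759 to 0.931, at an unadjusted edgeR p of 0.00379 and an adjusted p of 0.0926. The change therefore missed the threshold, and it did so in every alternative, with adjusted p from 0.066 to 0.301 and log2 fold changes from -0.268 to -0.239 when single mice were left out.

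Transcript length moved with direction in these data, and Prdx1 is short, at 1417 bases. Among all genes tested, the 887 shorter than 1000 bases had a median log2 fold change of -0.12 and the 1351 of 1000 to 1500 bases one of -0.066, whereas the 4095 of at least 4000 bases had one of 0.054. The length bins were drawn after the data had been seen. The difference between transcript length and the effective length that RSEM used was 45.8 to 49.7 bases in WT and 55.1 to 57.6 bases in TSC1-KO mice, without overlap. With effective lengths as offsets in the edgeR fit Prdx1 was at -0.247 (adjusted p = 0.0992), against -0.251 without them. Such offsets, here and below, carry only the difference in effective length and do not correct for the trend across the length bins. The part of transcript length in the Prdx1 result was not tested.

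Sulfiredoxin, encoded by Srxn1 (chr2:152105516-152111376, plus strand), repairs peroxiredoxins that peroxide has over-oxidised. Srxn1 was at 18.8, 14.9 and 15.4 TPM in the WT mice and at 16.6, 16.9 and 17.6 TPM in the TSC1-KO mice. The WT mice spread on both sides of the TSC1-KO mice, which were close together. Srxn1 had a log2 fold change of 0.03 (95% interval -0.23 to 0.29, edgeR adjusted p = 0.915), and it was -0.03 without WT replicate 2 and -0.0042 without TSC1-KO replicate 3.

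Catalase breaks down hydrogen peroxide in peroxisomes, and manganese superoxide dismutase, encoded by Sod2, removes superoxide in the mitochondrial matrix. Cat (chr2:103453849-103485160, minus strand) was at 105, 88.9 and 88.9 TPM in the WT mice and at 115, 113 and 82.0 TPM in the TSC1-KO mice. The highest and lowest mice were both TSC1-KO, with replicate 3 below every WT mouse. Cat had a log2 fold change of 0.10 (95% interval -0.17 to 0.37, edgeR adjusted p = 0.691), and 0.24 without TSC1-KO replicate 3 (adjusted p = 0.128).

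Sod2 (chr17:13006846-13040063, plus strand) was at 70.0, 64.1 and 70.4 TPM in the WT mice and at 63.4, 62.9 and 72.9 TPM in the TSC1-KO mice. A pair of TSC1-KO mice lay just under the WT mice and the other just above them. Its log2 fold change was -0.06 (95% interval -0.26 to 0.13, edgeR adjusted p = 0.738), and -0.15 without TSC1-KO replicate 3 (adjusted p = 0.307). Sod1, which encodes the cytosolic copper-zinc enzyme, was at 435, 427 and 452 TPM in the WT mice and at 378, 360 and 383 TPM in the TSC1-KO mice. All TSC1-KO mice lay below all WT mice for Sod1, with a log2 fold change of -0.27 (SE 0.071, edgeR adjusted p = 0.0925). The Sod2 to Sod1 ratio of the WT mice was thus 0.156 ± 0.00537 (SD, n = 3), and that of the TSC1-KO mice 0.178 ± 0.0117 (n = 3), a log2 difference of 0.19. The groups did not overlap, and the exact permutation p of 0.1 is the smallest that 3 mice against 3 can give (adjusted over the 4 ratios 0.4). Sod1 is also short, at 648 bases, in the length bin with the lowest median, and with effective lengths as offsets it was at -0.26 (edgeR adjusted p = 0.107). From expected counts in place of TPM, the log2 difference in the ratio was 0.21.

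Heme oxygenase 1, encoded by Hmox1 (chr8:75093621-75100589, plus strand), opens heme to biliverdin, carbon monoxide and iron and is the classical inducible member of the response. Hmox1 was at 14.5, 20.1 and 17.0 TPM in the WT mice and at 21.6, 16.8 and 21.2 TPM in the TSC1-KO mice. TSC1-KO replicates 1 and 3 lay above every WT mouse and TSC1-KO replicate 2 lay inside the WT range. Hmox1 had a log2 fold change of 0.17 (95% interval -0.20 to 0.55, edgeR adjusted p = 0.627). Hmox2, its constitutive relative, was at a mean of 99.3 TPM in WT and 106.6 TPM in TSC1-KO mice. The ratio of Hmox1 to Hmox2 was 0.174 in WT and 0.187 in TSC1-KO mice (two-sided exact permutation p = 0.7, adjusted over the 4 ratios 0.8), and its direction turned when WT replicate 1 was left out. Hmox1 is made in quantity by macrophages, and the summed level of 9 microglia and macrophage markers was 192 to 258 TPM in WT and 177 to 273 TPM in TSC1-KO mice. None of the 9 was called. The groups did not overlap in 2 of the 9, beside 22.7% of all genes, so the count is close to the share of the whole transcriptome. The 2 were Cx3cr1 at -0.53 (edgeR adjusted p = 0.129) and Csf1r at -0.35 (0.219), both lower in TSC1-KO mice. Mrc1, of the macrophages at brain borders, was at -0.62 (0.236), but Cd163 of the same list was at 0.42 (0.510), and both overlapped between the groups. The C1q genes C1qa, C1qb and C1qc, which make up most of the sum, also overlapped. The part of these cells in the Hmox1 value was not tested. In bulk tissue, fewer cells of a type and less RNA per cell cannot be told apart.

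NAD(P)H quinone dehydrogenase 1, encoded by Nqo1 (chr8:107388225-107403206, minus strand), reduces quinones and is widely used as a readout of NRF2. Nqo1 was at 6.19, 4.84 and 4.25 TPM in the WT mice and at 3.84, 2.22 and 3.99 TPM in the TSC1-KO mice. The groups were separated by the small gap between WT replicate 3 and TSC1-KO replicate 3, and the expected counts behind them, 54, 48 and 34 in WT and 31, 17 and 35 in TSC1-KO mice, did overlap. The log2 fold change was -0.62 (95% interval -1.22 to -0.03), at an unadjusted edgeR p of 0.0424 and an adjusted p of 0.259. It ranged from -0.784 to -0.411 when single mice were left out. The unadjusted p was 0.0985 in DESeq2 and 0.0402 in limma on log2(TPM + 1). In edgeR it was 0.134, 0.0695 and 0.0411 without WT replicates 1, 2 and 3. Without TSC1-KO replicates 1, 2 and 3 it was 0.0567, 0.130 and 0.0280. The difference in Nqo1 was the largest of the 10 genes and also the least precise.

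**Figure D2:**
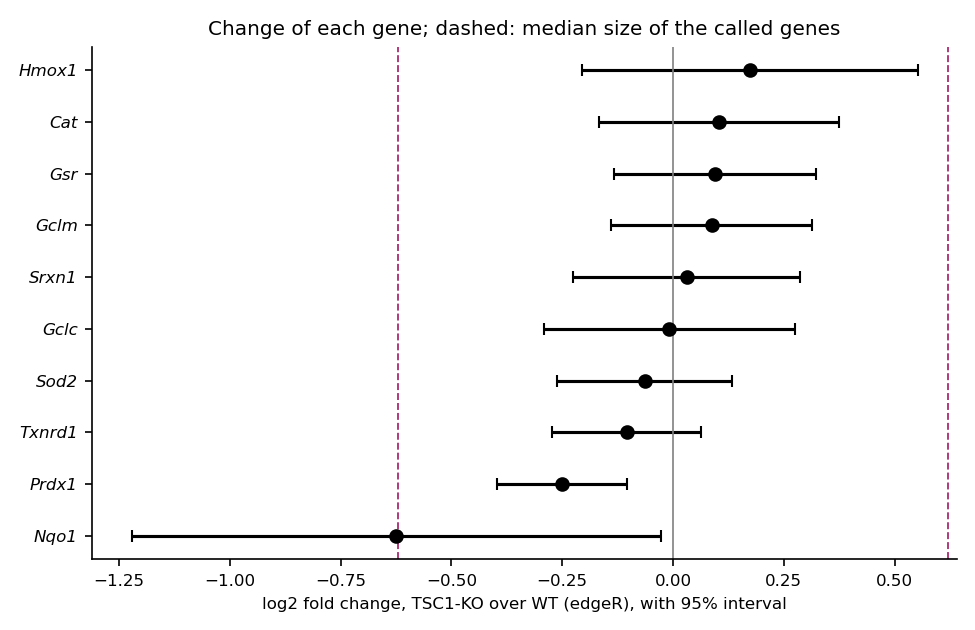
Log2 fold change of TSC1-KO against WT for the 10 genes (horizontal axis, edgeR), with the 95% interval as a bar. The intervals of 8 genes include 0, and those of Prdx1 (-0.40 to -0.10) and Nqo1 (-1.22 to -0.03) do not, although neither passed the threshold after adjustment.

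Summed markers of other cell types are given beside Nqo1 and Prdx1. The sums lay apart between the groups for the choroid plexus and the oligodendrocyte lineage, and overlapped for the other lists. The 4 choroid plexus markers summed to 1159 to 2445 TPM in WT and 27.8 to 856 TPM in TSC1-KO mice. None of the 4 overlapped between the groups, beside 22.7% of all genes that did not. The 6 endothelial markers summed to 173 to 231 TPM in WT and 146 to 177 TPM in TSC1-KO mice. Their median log2 fold change was -0.48, and 0 of the 6 were called. The groups did not overlap in 2 of the 6, Tek at -0.59 (edgeR adjusted p = 0.0577) and Cldn5 at -0.49 (0.0670), beside the same 22.7%. Cdh5 was at -0.57 (0.165), Kdr at -0.48 (0.177), Pecam1 at -0.14 (0.594) and Flt1 at 0.02 (0.961). The 4 meningeal and fibroblast markers summed to 124 to 211 TPM in WT and 73.6 to 198 TPM in TSC1-KO mice. Of 9 red blood cell markers, 7 were in the tables and summed to 1695 to 5568 TPM in WT and 1293 to 1783 TPM in TSC1-KO mice, with Hbb-b2 listed at 0 in all 6. The 6 astrocyte and radial glia markers summed to 2848 to 3444 and 2799 to 2965 TPM, most of it from Fabp7. Within that list Gfap rose by 1.09 on the log2 scale (edgeR adjusted p = 0.00683), and Aqp4 was at 0.27 (0.300). The others were below 0, with Gja1 at -0.69 (0.130), Slc1a3 at -0.31 (0.149), Fabp7 at -0.13 (0.362) and Aldh1l1 at -0.08 (0.629). The 4 oligodendrocyte markers summed to 166 to 203 and 153 to 163 TPM, and the 8 telencephalic neuron markers to 1791 to 1885 and 1739 to 2094 TPM, with Dlx1 and Gad1 called lower in TSC1-KO mice. The part of these cell types in the Nqo1 and Prdx1 values was not tested.

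Because NRF2 acts through a defined element, the promoters of the 10 genes were searched for it. RefSeq promoters (GRCm38.p6), 250 bases before to 50 after the start, were matched for 7 of the 10 genes, and no entry was used for Hmox1, Gclc and Gsr. Txnrd1 had 3 promoters and each other matched gene had 1, so 9 promoters were searched. The core of the element, TGACNNNGC read on either strand, was found in 4 of the 7 genes, Gclm, Prdx1, Srxn1 and Txnrd1, and in 14.0% of the 27025 genes with a promoter (12.4% of 32851 promoters). A stricter pattern of the same length, TGANTCAGC, which overlaps the core where it reads TGACTCAGC, was found in Prdx1 and Srxn1 and in 1.37% of genes (1.19% of promoters). The stretches around these matches are shown because they are the candidate elements of the genes whose levels are given above. They are written 5′ to 3′ on the strand of the gene, with the match in capitals.
Gclm, chr3:122245403-122245451: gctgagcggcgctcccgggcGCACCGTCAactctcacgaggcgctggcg
Prdx1, chr4:116685446-116685494: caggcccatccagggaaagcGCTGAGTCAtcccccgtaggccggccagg
Txnrd1, chr10:82859094-82859142: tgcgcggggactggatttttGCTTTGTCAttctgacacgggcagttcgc
Srxn1, core, chr2:152105532-152105573: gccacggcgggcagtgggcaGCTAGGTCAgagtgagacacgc
Srxn1, stricter pattern, chr2:152105459-152105507: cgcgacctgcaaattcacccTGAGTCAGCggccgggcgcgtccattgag

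In Gclm, Prdx1, Txnrd1 and the first Srxn1 stretch the match lies on the opposite strand, so the capitals are the reverse complement of the searched letters. In Prdx1 the 9 capitals match both searches. Counted from the start of its own promoter, the match begins 134 bases before in Gclm, 133 in Prdx1 and 92 in Txnrd1. In Srxn1 the stricter pattern begins 45 bases before the start and the core match 28 bases after it. Of the 3 Txnrd1 promoters only 1 held a match, which lies inside the gene span given above and not at its first base. The 4 genes with a match had log2 fold changes of 0.09 (Gclm), -0.25 (Prdx1), 0.03 (Srxn1) and -0.10 (Txnrd1), so they did not share a direction. A match of letters is a description and not a bound site.

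The regulators of the response were examined next, as 1 of 8 lists of related genes. Nfe2l2, which encodes NRF2, was at 19.0, 8.02 and 6.45 TPM in the WT mice and at 24.1, 17.7 and 8.13 TPM in the TSC1-KO mice. Replicate 1 was the highest mouse of each group, and the values differed 3.73-fold between the lowest and highest mouse, more than for any of the 10 genes. Its log2 fold change of 0.55 had a 95% interval from -0.42 to 1.51 (edgeR adjusted p = 0.540), and no fit called it. The value depended on single mice, at 1.13 without WT replicate 1 (adjusted p = 0.126), 0.87 without TSC1-KO replicate 3 (0.175), 0.49 without TSC1-KO replicate 2 (0.758), 0.36 without WT replicate 2 (0.828), 0.29 without WT replicate 3 (0.845) and 0.20 without TSC1-KO replicate 1 (0.901). Keap1, which encodes its inhibitor, was at a mean of 48.9 TPM in WT and 50.8 TPM in TSC1-KO mice (log2 fold change 0.03, edgeR adjusted p = 0.895). Mafg, a small MAF partner, was at 0.28 (adjusted p = 0.336). Of the 9 regulators tested, 0 were called, 5 had a log2 fold change above 0 and 4 below.

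Across all 8 lists, 85 of 93 genes were in the tables and 80 were tested, and 4 were called, all higher in TSC1-KO mice, beside the 1.52% of all genes called in either direction. The 4 were Sesn2, Sesn3, Chac1 and Oplah, and no listed gene was called lower. The median log2 fold change of the 80 genes was -0.014, with 36 above 0 and 44 below. Slc3a2, Slc1a1, Gstp1, Gsto1, Prdx3, Prdx5, Ccs and Fth1 were not analysed here. By whole gene span, introns included, the annotation places Sod1 over Scaf4, Mafg over Sirt7, Oplah over Smpd5 and Exosc4, and Chac2 over Asb3. It likewise places Gpx8 over Cdc20b, Cpox over Gpr15, Ncf1 over Gtf2ird2 and Hmox2 over Cdip1. Keap1, Sesn2, Txnip, Me1 and Akr1b3 lie over genes annotated as antisense. Mafg and Sirt7 are on the same strand, as are Sesn2 and its neighbour Gm12981. For the pairs on opposite strands, reads in shared exons cannot be assigned by strand, because the library kit did not keep it. Whether exons overlap was not examined, so the values of these genes are less certain.

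Glutathione supply and breakdown held 2 of the 4 called genes among 10 tested. Chac1, which encodes an enzyme that cleaves glutathione in the cytosol and is a known target of the ATF4 stress pathway, was at 6.80, 5.08 and 4.45 TPM in the WT mice and at 87.1, 51.9 and 11.4 TPM in the TSC1-KO mice. All TSC1-KO mice were above all WT mice, but TSC1-KO replicate 3 was far below the other two. Chac1 rose by 3.15 on the log2 scale (SE 0.61, edgeR adjusted p = 0.0471). Oplah, which encodes 5-oxoprolinase and returns glutamate from a product of glutathione breakdown, was at 6.86, 7.19 and 7.62 TPM in the WT mice and at 11.3, 11.7 and 10.5 TPM in the TSC1-KO mice. It rose by 0.60 (SE 0.12, edgeR adjusted p = 0.0471), with the mice of each group close together.

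Both calls were near the threshold. Chac1 lost its call under limma (adjusted p = 0.0612 with a pseudocount of 1) and in each fit that left out 1 mouse other than TSC1-KO replicate 3, where adjusted p was 0.0551, 0.192 and 0.154 without WT replicates 1, 2 and 3 and 0.167 and 0.161 without TSC1-KO replicates 1 and 2. Without TSC1-KO replicate 3 it was at 3.63 (adjusted p = 0.000165). Oplah lost its call with each of the same 5 mice left out (0.0538, 0.192, 0.127, 0.167 and 0.195), under limma (0.0634) and with upper-quartile normalization (0.0537). The log2 fold changes stayed above 2.5 for Chac1 and above 0.5 for Oplah in all of these. Chac2, which encodes a slower relative of the Chac1 enzyme, was at 0.45 (edgeR adjusted p = 0.204), and Cth, which encodes an enzyme that makes cysteine, was at -0.29 (adjusted p = 0.594).

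The thioredoxin, peroxiredoxin and superoxide dismutase list held the other called genes, Sesn2 and Sesn3, among 13 tested. Sestrins are stress-induced proteins that were first linked to the repair of peroxiredoxins and that also restrain mTORC1. Sesn2 was at 5.09, 3.84 and 3.61 TPM in the WT mice and at 33.5, 20.5 and 21.7 TPM in the TSC1-KO mice. Every TSC1-KO mouse was several times above every WT mouse, and Sesn2 rose by 2.56 (SE 0.21, edgeR adjusted p = 0.00112), a call that held in all 15 alternatives. Sesn3 was at 39.0, 31.8 and 30.0 TPM in the WT mice and at 59.4, 50.3 and 46.1 TPM in the TSC1-KO mice, without overlap. It rose by 0.60 (SE 0.12, edgeR adjusted p = 0.0460), and the call was lost without WT replicate 2 (0.198) or 3 (0.161), without TSC1-KO replicate 1 (0.185) or 2 (0.163) and with upper-quartile normalization (0.05004). Sesn1 averaged 52.1 ± 4.80 TPM (SD, n = 3) among WT mice and 69.9 ± 6.76 TPM (n = 3) among TSC1-KO mice, with a log2 fold change of 0.39 (edgeR adjusted p = 0.0710, DESeq2 0.0108).

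Of the 13 log2 fold changes in that list, 10 were below 0, and the list median was -0.11, against -0.0027 for all genes. Among all genes tested, 71.8% of those shorter than 1000 bases and 64.3% of those of 1000 to 1500 bases were lower in TSC1-KO mice. The part of transcript length in the list median was not tested. Txnip, which encodes an inhibitor of thioredoxin, was at 109.9, 217 and 191 TPM in the WT mice and at 35.6, 35.9 and 108.0 TPM in the TSC1-KO mice. The lowest WT mouse and the highest TSC1-KO mouse, replicate 3, were nearly level. The log2 fold change of Txnip was -1.55 (SE 0.43, edgeR adjusted p = 0.107), and without TSC1-KO replicate 3 it was -2.32 (adjusted p = 0.00171).

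Of 18 genes that use glutathione, 0 were called and 12 had a log2 fold change below 0, with a median of -0.11. The part of transcript length in this count and median was not tested either. Gpx1, the main cytosolic glutathione peroxidase, was at 142, 143 and 145 TPM in the WT mice and at 108.9, 116 and 120.3 TPM in the TSC1-KO mice. The groups lay well apart, with a log2 fold change of -0.35 (SE 0.083), and the adjusted p was 0.0727 in edgeR, 0.0320 in DESeq2, 0.0354 in limma and 0.0408 in edgeR without TSC1-KO replicate 3. With any other mouse left out, it was between 0.0606 and 0.266. Gpx1, at 1047 bases, is in the same length bin as Prdx1, and with effective lengths as offsets it was at -0.34 (edgeR adjusted p = 0.0796). Gpx8, which encodes a peroxidase of the endoplasmic reticulum, was at -0.43 (edgeR adjusted p = 0.186).

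**Figure D3:**
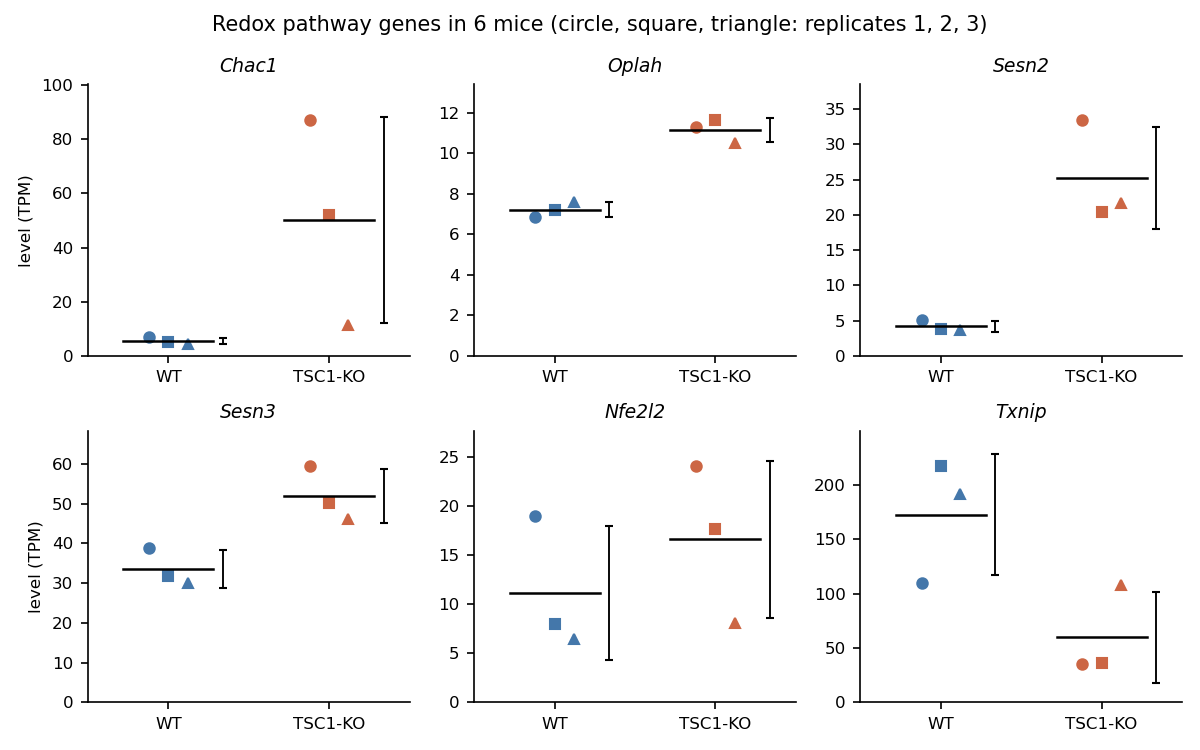
Level in TPM (vertical axes from 0) of regulators and related genes in the 3 WT and 3 TSC1-KO mice. Circles, squares and triangles are replicates 1, 2 and 3, the black line is the mean and the bar the SD. Sesn2 (3.61 to 5.09 TPM in WT, 20.5 to 33.5 TPM in TSC1-KO mice) and Chac1 (4.45 to 6.80 and 11.4 to 87.1 TPM) were called, whereas Nfe2l2 (6.45 to 19.0 and 8.13 to 24.1 TPM) overlaps.

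The remaining lists held no called gene. Of 8 genes that supply NADPH, 5 were above 0, with Me1 (malic enzyme) at 0.24 (edgeR adjusted p = 0.214) and Idh1 (cytosolic isocitrate dehydrogenase) at 0.13 (0.429), or 0.21 without TSC1-KO replicate 3 (0.107). Of 9 genes of heme and iron handling, 6 were above 0. Slc40a1, which encodes the iron exporter ferroportin, was at 25.97, 23.4 and 18.5 TPM in the WT mice and at 15.3, 16.3 and 12.8 TPM in the TSC1-KO mice, without overlap. Its log2 fold change was -0.64 (SE 0.13), at an adjusted p of 0.0555 in edgeR and 0.00248 in DESeq2. Cpox, of heme synthesis, was at 0.36 (edgeR adjusted p = 0.268).

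Among the 9 tested NRF2 targets of detoxification, 3 were above 0 and 6 below. Abcc4, an exporter of conjugates, was at 0.49 (edgeR adjusted p = 0.179), and Akr1b3, an aldose reductase, was at -0.22 (0.365). Of 4 tested genes whose products make oxidants, 2 were above 0 and 2 below. Ncf1, a subunit of the phagocyte oxidase, was at 2.25 TPM in WT and 4.38 TPM in TSC1-KO mice (log2 fold change 0.91, edgeR adjusted p = 0.130), and Nox4 was at -0.21 (0.645).

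**Figure D4:**
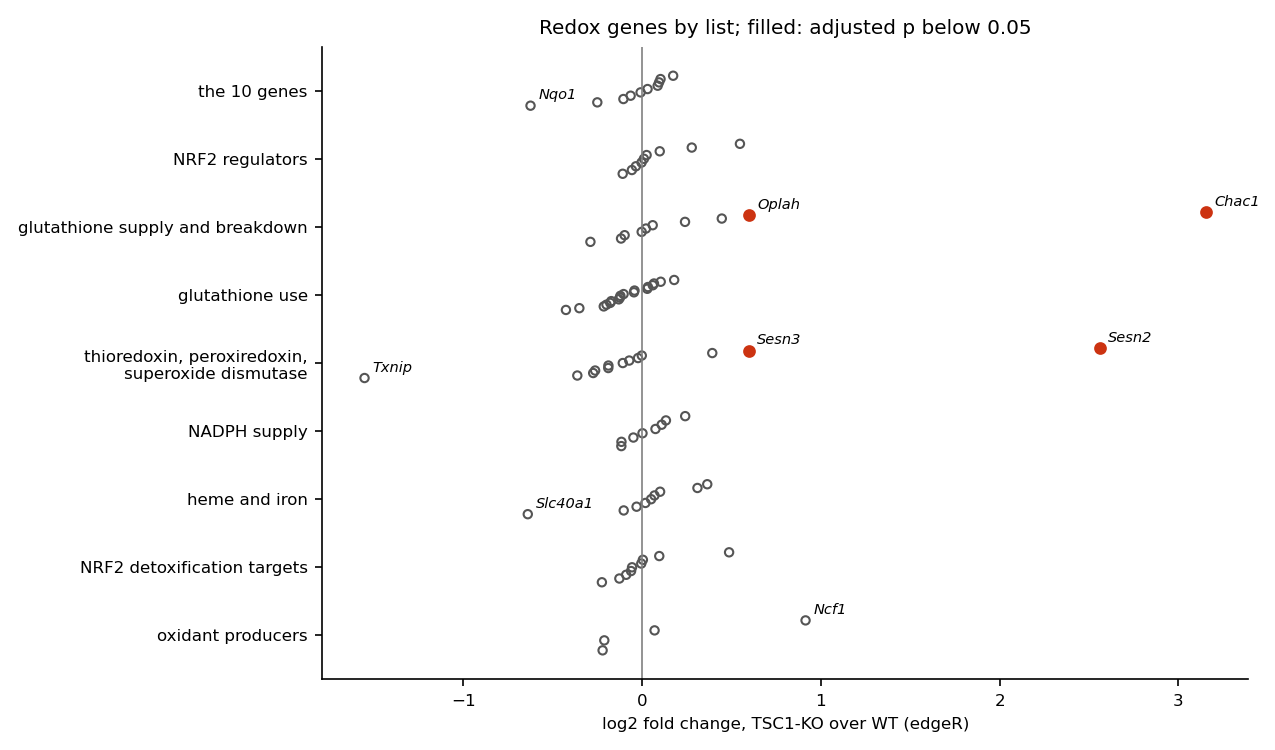
Log2 fold change of TSC1-KO against WT (edgeR) for every tested gene of the 10 described genes and of the 8 related lists, 1 row per list and 1 point per gene, with called genes filled in red and points offset vertically in order of value for legibility. The 10 genes lie between -0.62 and 0.17, and the called genes are Sesn2 (2.56), Sesn3 (0.60), Chac1 (3.15) and Oplah (0.60).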

How the data were processed

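After trimming, the authors mapped the reads with MapSplice2 to mm10 and used RSEM on RefSeq genes (version 1.2.12 in the submitters' processing notes), 1 table per mouse, without pooling. The deposited expected counts are RSEM's read estimates with no normalization. The deposited TPM are scaled by effective length and total. The deposited FPKM, also from RSEM, were not used. The deposited tables also hold other values, the transcript and effective lengths.

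Groups came from the genotype labels. Depth was 14119365 to 17772865 counts, at which 3 counts equal 0.169 to 0.212 CPM. Rounded expected counts entered edgeR 4.0.16 under R 4.3.3 (quasi-likelihood test after TMM and filterByExpr, with only these groups), with a Benjamini-Hochberg adjusted p below 0.05. The study's own permutation-based method was not rerun. limma 3.58.1 on log2(TPM + 1) and DESeq2 1.42.0 were alternatives. Ratios were compared with two-sided exact permutation tests in scipy 1.17.1. The scripts were tested on simulated data.

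The 10 genes and all lists were chosen with earlier results of these data known. The genes named were Tsc1, the 10 genes, Nfe2l2, Keap1, Hmox2, Sod1 and Txnrd2, and from each list every called gene and up to 2 others with the largest change and a mean of at least 1 TPM. Gene positions are from GENCODE vM21 (GRCm38), which is not the annotation that was counted. Alternatives covered normalization, filter, test, pseudocount, effective-length offsets, a replicate block and each mouse left out.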

Additional observations from a re-analysis of the deposited data

How the results depend on the processing

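None of the 10 genes was called in the main edgeR fit or in any of the 15 alternatives. The number of genes called among all tested was 212, and it was 642 with DESeq2, 346 without a filter, 551 with a replicate block and between 29 and 799 when 1 mouse was left out. Small changes turned sign. Gclc was at 0.0090 with limma on log2(TPM + 1) and 0.0089 on log2(TPM + 0.1), and between -0.11 and 0.11 with 1 mouse left out. Srxn1 was between -0.030 and 0.12 and Keap1 between -0.014 and 0.053 with 1 mouse left out, and Keap1 was at -0.0058 with upper-quartile normalization. Txnrd2 was at 7.6e-05 with DESeq2, 0.030 and 0.031 with limma, 9.5e-04 with the replicate block and between -0.051 and 0.057 with 1 mouse left out. The log2 difference in the ratio of Hmox1 to Hmox2 was between -0.049 and 0.26, that of Gclc to Gclm between -0.24 and -0.012, that of Sod2 to Sod1 between 0.14 and 0.23 and that of Txnrd1 to Txnrd2 between -0.16 and -0.059. The cause of these shifts was not tested.

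Replicate numbers in the labels are shared by the groups, but mice with the same number did not deviate together throughout (r = 0.267, -0.133 and 0.318 for numbers 1, 2 and 3, over 13969 genes), and not every mouse correlated best with its own number, so the numbers were not taken to pair the mice. The replicate block left 0 of the 10 genes called and added calls for Tsc1 (adjusted p = 0.0217), Gpx1 (0.0473), Sesn1 (0.0295), Txnip (0.0246) and Slc40a1 (0.0232). Nfe2l2 was at 0.58 with the block (0.115). Among the 10 genes, Nqo1 had the fewest counts, 17 to 54 per mouse.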

Other observations

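Prdx2, Txn1 and Alas1, which are related to the 10 genes by function, were looked at after their values had been seen. Prdx2, which encodes the peroxiredoxin most abundant in neurons and red blood cells, had a mean of 1009 TPM over the 6 mice and a log2 fold change of -0.26 (edgeR adjusted p = 0.109), and the red blood cell markers summed to 1695 to 5568 TPM in WT and 1293 to 1783 TPM in TSC1-KO mice, whose part in this value was not tested. Txn1, which encodes cytosolic thioredoxin, had a mean of 228 TPM and a log2 fold change of -0.19 (edgeR adjusted p = 0.286). Alas1, the first enzyme of heme synthesis, had a mean of 37.0 TPM and a log2 fold change of 0.31 (edgeR adjusted p = 0.195).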
